A study of Mus musculus with 9 samples.

Results

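The caveolin, ferlin and membrane repair genes of mouse skeletal muscle were described across 9 RNA sequencing libraries. They are 10 genes chosen by symbol, with no threshold on their expression: the caveolins Cav1, Cav2 and Cav3, the ferlins Dysf and Myof, the repair protein gene Trim72, the anoctamin Ano5 and the annexins Anxa1, Anxa2 and Anxa6. All 10 were matched to Ensembl identifiers and were listed for every library, among 46078 genes for the cultured cells and 38293 genes for the tissue.

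Caveolins are membrane proteins that oligomerize and, together with cavins, bend the plasma membrane into caveolae, small pits that flatten when a cell is stretched. Caveolin-1 and caveolin-2 form caveolae in many cell types such as endothelium, fibroblasts and adipocytes, whereas caveolin-3 is the caveolin of muscle fibers. When the membrane of a fiber tears, calcium enters, and dysferlin, the Trim72 product (also called MG53), annexins and anoctamin-5 take part in closing the lesion, and mutations of the human counterparts of Cav3, Dysf and Ano5 cause muscle disease.

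The tissue was the gastrocnemius muscle (GAS), a limb muscle, of female C57Bl6/J mice aged 8 to 12 weeks (n = 3). Primary myoblasts (MB), the proliferating precursors of muscle fibers, were grown on Matrigel with horse serum, fetal bovine serum and basic FGF (n = 2), and myotubes (MT) were obtained by keeping them for 3 days in differentiation medium with less serum and no added growth factor (n = 2). Further MB received 10 mM sodium-L-lactate in PBS (n = 2), and control cells received PBS only. The labels give the strain C57BL/6 for all groups and name no transgene or deletion. They speak of overnight conditions for the cultures without giving hours of lactate exposure, and they do not state whether cultures of a group came from different animals, so that p-values may measure the spread between cultures only.

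Libraries of cultured cells held between 5198247 and 10839516 counts and those of GAS between 19307793 and 19941574. By these raw totals, 3 counts in a library amounted to between 0.277 and 0.577 CPM (read counts scaled to a common library size) in culture. In GAS they amounted to at most 0.155 CPM. Levels in CPM elsewhere in the text also carry a scaling between libraries (TMM). MT replicate 1 stood apart from the other cultures, with 28599 genes counted against 15548 to 17965, and 8918 genes were counted there and in no other cultured library, although they held 1.23% of its counts. The summed levels of muscle markers followed the labels: that of 4 myoblast genes was 930 to 1542 CPM in MB and 249 to 750 CPM in MT, that of 6 genes of differentiated muscle was 97.6 to 210.1 CPM in MB and 10739 to 13895 CPM in MT, and the adult fiber genes Myh2, Myh4 and Pvalb were at 0 in both MB libraries but not in MT. The myoblast sum was mostly Myod1, and another of its genes, Cdh15, did not follow the labels, at 305 and 173 CPM in MB and 87.9 and 363 CPM in MT. All 5 fibroblast markers exceeded 3 counts in both MT libraries, with summed levels of 14563 and 24032 CPM, whereas MB reached 234 to 473 CPM with Lum at 0. Those of MT included Col1a1 at 13116 CPM in replicate 1 and 1762 CPM in replicate 2, and Dcn at 408 and 110.3 CPM. Col3a1 did not fall in this way, at 10497 CPM in MT replicate 1 and 12688 CPM in MT replicate 2. In MB it was at 470 and 232 CPM and made up nearly all of the sum. The part of such cells or genes in the results was not tested.

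The first comparison, of MT with MB, asks which of these genes change with differentiation. Of the 10 genes, 5 were higher in MT (Cav1, Cav3, Dysf, Trim72 and Ano5) and 0 were lower, at an adjusted p under 0.05 and an absolute log2 fold change (log2FC) over 0.5 in edgeR's quasi-likelihood test over 12921 genes. Of all genes tested, 11% were higher and 6.86% were lower by the same rule. The median log2FC was 1.33 over the 10 genes and 0.072 over all genes tested. All 10 passed the filter on low counts, but Cav3, Trim72 and Ano5 did so through the MT libraries alone. A gene that is tested only because it is high in MT is bound to come out higher there, so that the count of 5 and the median are descriptions and nothing is read from setting them beside all genes. MT and MB libraries did not overlap in normalized level for 8 of the 10, all but Cav2 and Anxa1, and for 62.1% of all genes. Cav3, Trim72 and Ano5 are among these 8, so that nothing is read from this count either.

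**Figure D1:**
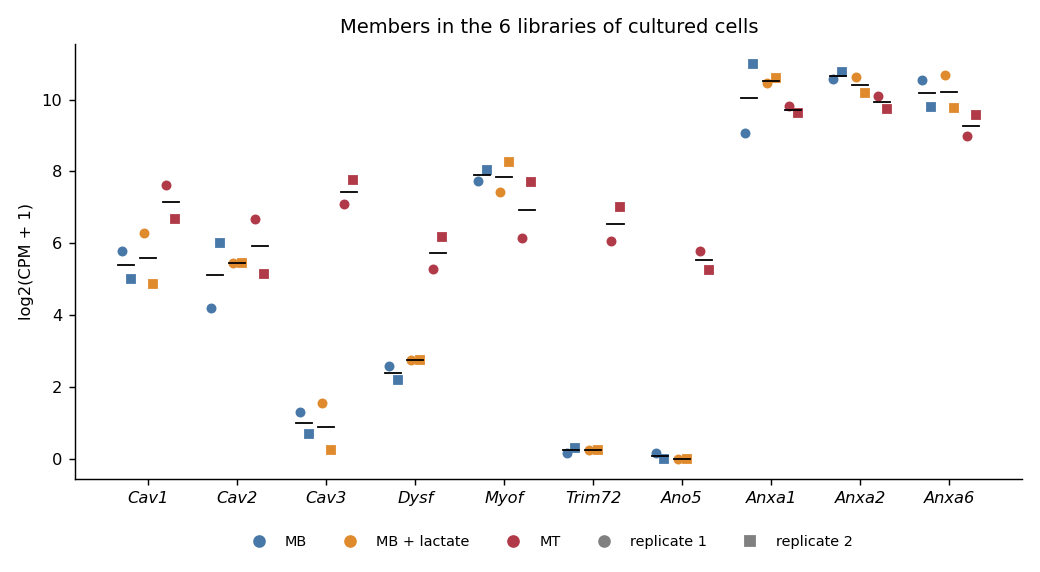
Level of the 10 genes in the 6 libraries of cultured cells, as log2(CPM + 1) on the vertical axis. Each point is a library, circles are replicate 1 and squares replicate 2, and bars are group means. Cav3, Trim72 and Ano5 were at most at 1.93 CPM in MB and lactate-treated MB and above 37 CPM in both MT libraries, whereas the annexins were high in all groups.

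Cav3, the caveolin of muscle fibers (ENSMUSG00000062694, chr6:112459505-112472872 of GRCm38, plus strand), was at 1.47 and 0.603 CPM in the MB libraries, from 12 and 5 counts. In MT it was at 136 and 217 CPM. Every MT library thus lay far above every MB library. The log2FC was 7.36 (SE 0.66, 95% interval 5.91 to 8.82, adjusted p = 0.000117, edgeR).

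Cav1 (ENSMUSG00000007655, chr6:17306335-17341452, plus strand), the main caveolin of non-muscle cells, was at 53.7 and 31.5 CPM in MB and at 197 and 102 CPM in MT. The groups did not overlap, and the level rose 3.53-fold (log2FC 1.82, SE 0.53, adjusted p = 0.0379, edgeR). This call was close to the threshold. It was lost without MT replicate 1 (log2FC 1.17, adjusted p = 0.408), without MB replicate 2 (1.33, adjusted p = 0.113) and with all 6 cultured libraries in the fit (1.83, adjusted p = 0.0735), and the adjusted p was under 0.05 in 8 of 12 alternatives. Where a library was left out, the group with 1 library was assumed to vary like the other group. Cav1 is also known from endothelium, whose 6 markers summed to 18.6 CPM in MT replicate 1, to 0.254 CPM in MT replicate 2 and to 0.241 to 0.490 CPM in MB, where Cdh5, Kdr, Tek and Tie1 were at 0. The summed fibroblast markers, given above, were also higher in MT, and smooth muscle and pericyte markers summed to 139 to 259 CPM in MT against 8.92 to 16.9 CPM in MB. Most of that sum in MT was Pdgfrb, at 105 and 209.8 CPM, whereas Rgs5 was at 10.3 and 0.127 CPM in MT and at 2.70 and 4.22 CPM in MB. Their part in the Cav1 result was not tested.

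Cav2 (ENSMUSG00000000058, chr6:17281185-17289115, plus strand), which lies beside Cav1 and whose product assembles with caveolin-1, differed more between replicates than between groups. It was at 17.4 and 63.4 CPM in MB and at 102 and 34.5 CPM in MT, and the ranges overlapped. Its log2FC of 0.84 (SE 0.67, 95% interval −0.63 to 2.32) was not significant (adjusted p = 0.414, edgeR). The value depended on single libraries, being −0.25 without MT replicate 1 (adjusted p = 0.924) and 1.83 without MB replicate 2 (adjusted p = 0.0126).

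Dysf (ENSMUSG00000033788, chr6:84008590-84211060, plus strand) encodes dysferlin, a calcium-binding protein of vesicles and of the plasma membrane of fibers. It was at 5.02 and 3.62 CPM in MB and at 37.9 and 71.0 CPM in MT, and both MT libraries exceeded both MB libraries. The level rose 12.3-fold (log2FC 3.62, SE 0.57, adjusted p = 0.00222, edgeR), and the adjusted p was at most 0.00938 in the 12 alternatives.

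Myof (ENSMUSG00000048612, chr19:37899036-38043577, minus strand), the ferlin known for its part in myoblast fusion, was not called in either direction. It was at 212 and 263 CPM in MB and at 70.4 and 209 CPM in MT. MT replicate 1 was low while replicate 2 was close to the lower MB library. The log2FC was −0.79 (SE 0.52, 95% interval −1.95 to 0.36, adjusted p = 0.320, edgeR). It was −0.24 without MT replicate 1 (adjusted p = 0.924) and −1.84 without MT replicate 2 (adjusted p = 0.0776).

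Trim72 (ENSMUSG00000042828, chr7:128003949-128011033, plus strand), whose product gathers vesicles at membrane lesions, had 1 and 2 counts in the MB libraries and 891 and 1015 counts in the MT libraries. These amounted to 0.123 and 0.241 CPM in MB against 66.3 and 129 CPM in MT. With the libraries of a group pooled, the ratio of MT to MB was 491, with an exact 95% interval of 168 to 2383 that covers counting error only. The test gave an adjusted p of 9.2e-05 (edgeR, log2FC 8.95, SE 0.74), a fold change that depends on the prior count used for so few counts.

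Ano5 (ENSMUSG00000055489, chr7:51511029-51598709, plus strand) encodes anoctamin-5, a membrane protein of the anoctamin family of ion channels and lipid scramblases. It had 1 and 0 counts in the MB libraries and 728 and 293 counts in the MT libraries, or 54.2 and 37.3 CPM. The pooled ratio was 789, with an exact 95% interval of 141 to 31198, and the adjusted p was 0.000171 (edgeR, log2FC 9.28, SE 0.93). Both MB libraries were thus at or under the limit of detection of 3 counts, and both MT libraries far above it.

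Cav3, Trim72 and Ano5 were near the detection limit in MB and at 37.3 to 217 CPM in MT, and the DNA just upstream of their starts is therefore shown. The sequences are the 250 bases before the RefSeq transcript start in the GRCm38.p6 assembly, 5′ to 3′ on the strand of the gene, with E-boxes (CANNTG, the motif bound by MyoD, myogenin and many other factors of their family) in capitals.
Cav3, chr6:112459255-112459504, plus strand: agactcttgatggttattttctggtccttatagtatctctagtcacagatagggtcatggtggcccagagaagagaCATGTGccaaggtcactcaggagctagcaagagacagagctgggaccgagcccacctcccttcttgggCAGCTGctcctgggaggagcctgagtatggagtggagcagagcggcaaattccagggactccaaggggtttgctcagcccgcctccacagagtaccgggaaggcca
Trim72, chr7:128004128-128004377, plus strand: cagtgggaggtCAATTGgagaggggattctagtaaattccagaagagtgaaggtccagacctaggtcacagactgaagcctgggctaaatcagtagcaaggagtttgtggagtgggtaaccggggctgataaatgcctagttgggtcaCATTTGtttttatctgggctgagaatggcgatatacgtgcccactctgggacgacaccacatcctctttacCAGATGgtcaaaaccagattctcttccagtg
Ano5, chr7:51510779-51511028, plus strand: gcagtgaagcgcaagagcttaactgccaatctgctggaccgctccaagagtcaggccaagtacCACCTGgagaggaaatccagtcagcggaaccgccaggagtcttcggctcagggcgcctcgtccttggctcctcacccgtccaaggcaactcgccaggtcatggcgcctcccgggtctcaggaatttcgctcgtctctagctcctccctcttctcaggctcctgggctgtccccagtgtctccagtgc
The Cav3 window held a match 174 bases before the start and another, CAGCTG, at 106 bases. The Trim72 window held 3 matches, at 239, 102 and 31 bases, and the Ano5 window held 1, at 187 bases. In GENCODE, the Trim72 window lies within an intron of Trim72 and an exon of its antisense gene Gm15533. CANNTG, which reads the same on both strands, was found in 66.2% of 32851 RefSeq promoter windows of this length, so that its presence does not set these windows apart. CAGCTG, one form of CANNTG, was found in 13.0%, and the MEF2 consensus, searched on both strands, in 2.92% and in 0 windows of the 9 genes that have one. The window of Cav2, which was not called, held 2 matches to CANNTG, and each window of Cav1 held 1. In both windows of Dysf and in those of Myof, Anxa1 and Anxa2 no CANNTG was found. Anxa6 had no entry. A match describes letters in a window and not a bound site.

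The annexins bind membrane phospholipids in the presence of calcium and gather at lesions. Anxa1 (ENSMUSG00000024659, chr19:20373428-20390944, minus strand) was at 538 and 2046 CPM in MB and at 910 and 785 CPM in MT, so that both MT libraries lay between the MB libraries. Anxa2 (ENSMUSG00000032231, chr9:69453620-69491795, plus strand) was at 1516 and 1734 CPM in MB and at 1101 and 854 CPM in MT. Anxa6 (ENSMUSG00000018340, chr11:54979108-55033445, minus strand) was at 1492 and 893 CPM in MB and at 502 and 754 CPM in MT. For Anxa2 and Anxa6 both MT libraries were thus below both MB libraries, though none of the annexins passed the test. Their log2FC were −0.55 for Anxa1 (95% interval −2.00 to 0.89, adjusted p = 0.60), −0.72 for Anxa2 (−1.96 to 0.53, adjusted p = 0.412) and −0.96 for Anxa6 (−2.21 to 0.29, adjusted p = 0.267, all edgeR). Without MB replicate 2, the value of Anxa1 was 0.50 (adjusted p = 0.727).

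Genes on the opposite strand share exon bases with Dysf, Trim72 and Anxa2, and the handling of strand in counting is not given in the sources used here. The antisense genes Gm15475 (Dysf), Gm15533 (Trim72) and Gm16144 (Anxa2) had at most 18, 5 and 75 counts in a cultured library, and reads in the shared bases cannot be assigned with certainty.

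**Figure D2:**
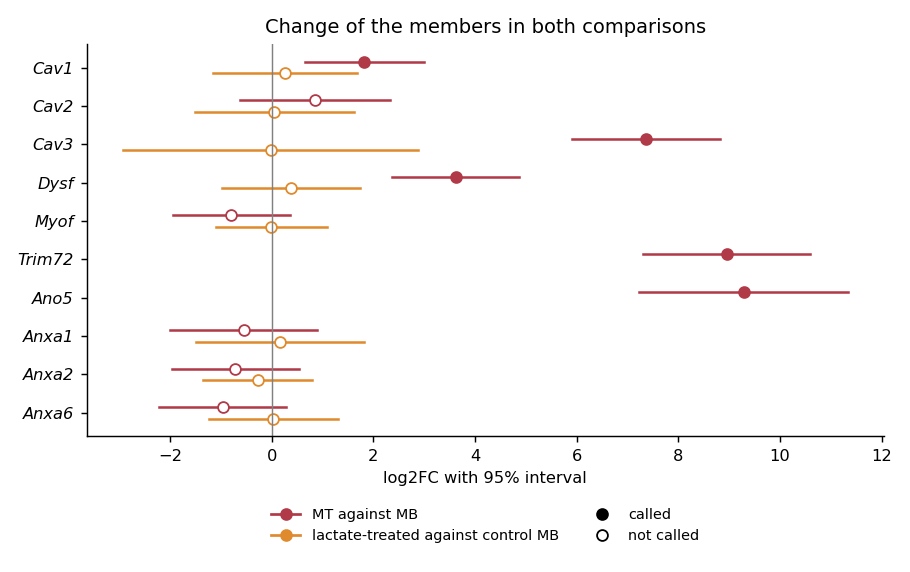
Log2FC of the 10 genes on the horizontal axis, with 95% intervals, for MT against MB and for lactate-treated against control MB. Filled points passed the threshold. For MT, 5 genes passed it, all higher, whereas the lactate intervals of the 8 genes tested all include 0.

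Pairs of related genes were also compared within each library, where scaling between libraries plays no part. Per kb of exon, Cav3 exceeded Cav1 in both MT libraries, by ratios of 2.05 and 6.34, whereas Cav1 exceeded Cav3 in the MB libraries by ratios of 12.3 and 17.5. On the log2 scale the ratio of Cav3 to Cav1 was −3.87 ± 0.36 in MB and 1.85 ± 1.15 in MT (SD, n = 2), a difference of 5.72. The ratio of Dysf to Myof was −5.19 ± 0.55 in MB and −0.63 ± 0.47 in MT, a difference of 4.56. Myof was thus the more abundant ferlin per kb in both MT libraries, by ratios of 1.23 and 1.95, against 27.9 and 48.1 in MB. Neither of these ratios overlapped between MT and MB, and the exact permutation test gave p = 0.333 for both, the smallest two-sided p that 2 against 2 libraries allow. The ratio of Cav1 to Cav2 ranged from −1.06 to 1.58 in MB and from 0.90 to 1.52 in MT, and so overlapped (exact permutation p = 1). With the length of the longest transcript in place of all exons, the ratios shifted equally in all groups.

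**Figure D3:**
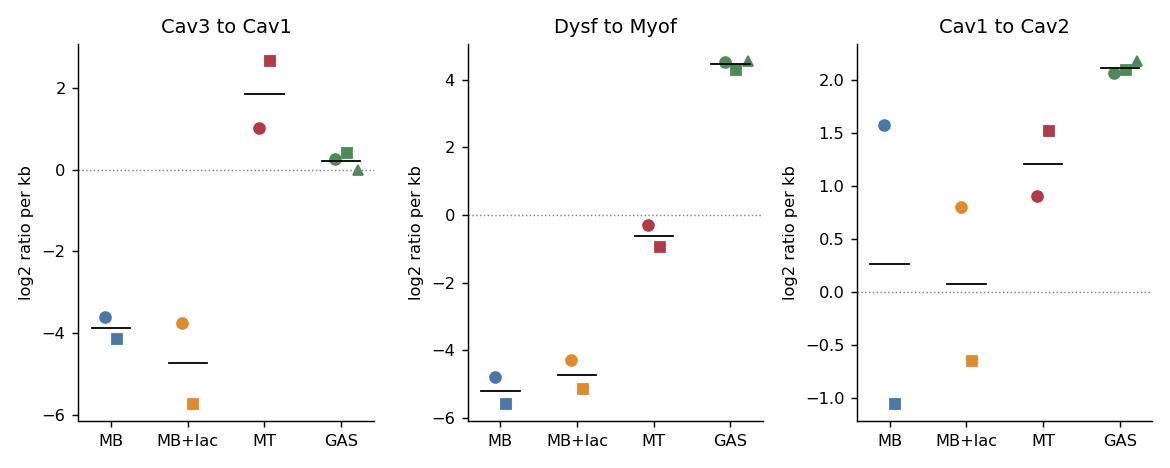
Log2 ratio per kb of exon for 3 pairs of genes within each library, with bars for group means, circles for replicate 1, squares for replicate 2 and triangles for replicate 3. The ratio of Cav3 to Cav1 was below −3 in all 4 MB libraries with and without lactate and above 0 in MT and GAS, and that of Dysf to Myof was above 4 in GAS only. Library protocols differed between GAS and the cultures.

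Ranked by level per kb (RPKM), the order of the 10 genes differed between MB and MT. In MB the annexins led, with means of 444 RPKM for Anxa1, 435 for Anxa2 and 407 for Anxa6 whose ranges overlapped, followed by Myof at 18.9, Cav1 at 12.4 and Cav2 at 12.1 RPKM, of which Cav2 overlapped both Cav1 and Myof. Cav3 at 0.896, Dysf at 0.519, Trim72 at 0.0814 and Ano5 at 0.00784 RPKM came last, and only Cav3 and Dysf overlapped among them. In MT the annexins were still first, at 291, 262 and 214 RPKM, but Cav3 followed at 153 RPKM and overlapped Anxa6. Next were Trim72 at 43.8, Cav1 at 43.5, Cav2 at 20.5, Myof at 11.1, Dysf at 6.54 and Ano5 at 5.85 RPKM. Each of these overlapped the next, while Trim72 did not overlap Cav3. These orders and overlaps hold for the length of all exons and can differ with that of the longest transcript. That length is 2489 instead of 2930 bases for Anxa6 and 7094 instead of 12603 for Myof, but 1157 either way for Cav3.

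A wider list of 65 genes of caveolae and membrane repair was read in the same fit, in which 53 were tested. Of these, 6 were higher in MT and 2 were lower, with a median log2FC of 0.16, against 11% higher and 6.86% lower of all genes. Pacsin1, Ror1 and Capn3 passed the filter through the MT libraries alone, so that nothing is read from these counts.

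Among cavins and other caveola proteins, 4 of 11 were higher and 0 lower. Cavin4, the cavin of muscle, was at 3.06 and 6.87 CPM in MB and at 322 and 504 CPM in MT (log2FC 6.38, SE 0.61, adjusted p = 0.000144, edgeR). Pacsin1, a membrane-bending protein of the F-BAR family best known from neurons, had 0 counts in MB and 25.6 and 9.92 CPM in MT, at least 48.7-fold higher when MB is set to 3 counts per library (adjusted p = 0.00128, edgeR). Ror1, a receptor tyrosine kinase that can hold caveolin and cavin together, was at 0.123 and 0.362 CPM in MB, from 1 and 3 counts, and at 5.36 and 2.03 CPM in MT (log2FC 3.92, SE 1.09, adjusted p = 0.0312, edgeR). Pacsin3, the muscle form of the Pacsin family, named because it is the only other gene of this list that passed, was at 63.2 and 43.1 CPM in MB and 143 and 234 CPM in MT (log2FC 1.79, SE 0.47, adjusted p = 0.0240, edgeR). Cavin4 passed in 12 of 12 alternatives. Ror1 had an adjusted p under 0.05 in 5 of 11 alternatives, and was lost among others without MT replicate 1 (adjusted p = 0.310), MB replicate 1 (0.578) or MB replicate 2 (0.358) and with no filter (0.423). Pacsin3 was lost without MT replicate 2 (0.151) or MB replicate 2 (0.0960).

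Of 9 other annexins and S100 partners, 1 was higher and 2 were lower. Anxa8 was at 5.02 and 7.35 CPM in MB and at 141 and 301 CPM in MT (log2FC 5.14, SE 0.56, adjusted p = 0.000255, edgeR). S100a10, whose product binds annexin A2, was at 793 and 733 CPM in MB and at 164 and 274 CPM in MT (log2FC −1.83, SE 0.51, adjusted p = 0.0314, edgeR). Anxa3 was at 190 and 365 CPM in MB and at 93.7 and 101 CPM in MT (log2FC −1.49, SE 0.46, adjusted p = 0.0480, edgeR). Both lower calls were near the threshold, and the adjusted p was under 0.05 in 10 of 12 alternatives for S100a10 and in 6 of 12 for Anxa3. Among others, S100a10 was lost without MT replicate 1 (log2FC −1.55, adjusted p = 0.361), and Anxa3 without MT replicate 1 (−1.50, adjusted p = 0.314), MT replicate 2 (−1.64, adjusted p = 0.113) or MB replicate 2 (−1.13, adjusted p = 0.156).

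Of 8 dysferlin partners and calpains, 1 was higher. Capn3, the muscle calpain whose human counterpart is mutated in a limb-girdle dystrophy, went from 0.245 and 0.603 CPM in MB to 27.9 and 95.5 CPM in MT (log2FC 7.11, SE 0.83, adjusted p = 0.000382, edgeR). The MB values rest on 2 and 5 counts. None of 2 other ferlins, 5 other anoctamins, 6 genes of vesicle fusion and lysosomal repair and 12 ESCRT genes passed in the edgeR fit described above, with unadjusted p under 0.05 for 0, 0, 3 and 2 of them. Of the vesicle fusion and lysosomal genes, 2 lay close to the threshold and were called higher in other fits, DESeq2 among them. These were Snap23 (log2FC 1.56, adjusted p = 0.0504, edgeR) and Lamp2 (log2FC 1.80, adjusted p = 0.0524, edgeR), named after their values were seen, with an adjusted p under 0.05 in 7 and 6 of 12 alternatives.

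**Figure D4:**
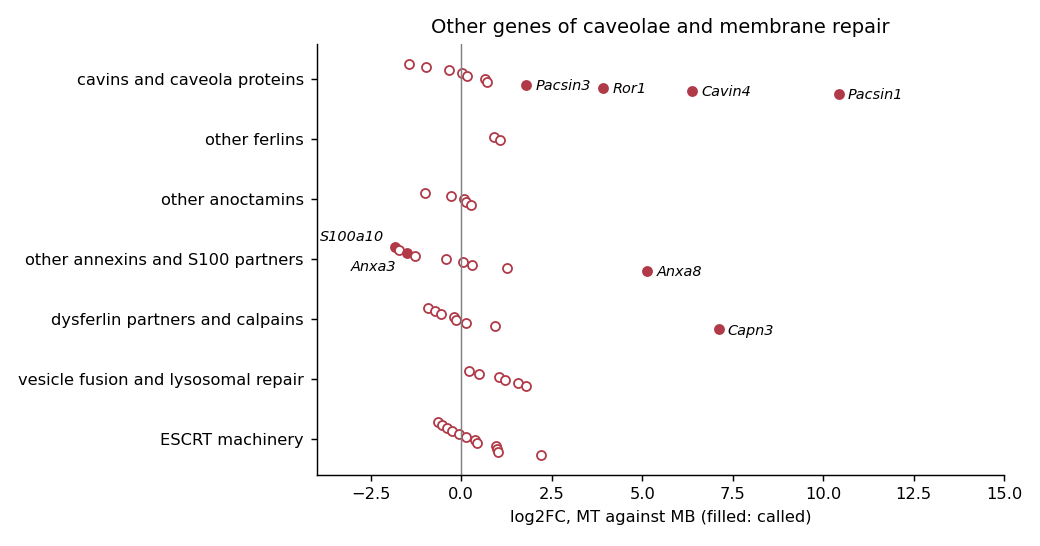
Log2FC of MT against MB, as fitted by edgeR, for the 53 tested genes of the wider list in 7 groups. Each point is a gene, and filled points with names passed the threshold. The value of Pacsin1, which had 0 counts in MB, depends on the prior count. The ESCRT, anoctamin and other ferlin genes hold no filled point.

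The second comparison, of lactate-treated with control MB, asks whether 10 mM sodium-L-lactate changes the level of these genes. It shares the control MB libraries with the comparison above. Of the 10 genes 8 passed the filter and 0 were called, and 0% of the 11804 genes tested were called in either direction. At an unadjusted p under 0.05 there were 0 of the 8 genes and 5 of all genes, or 0.0424%, and DESeq2 also called 0 of the 8. Without any change, a well-calibrated test would give a share of all genes near that threshold. The edgeR test was thus conservative here, and the lack of calls does not show a lack of change.

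Cav1 was at 77.6 and 28.1 CPM with lactate, against 53.7 and 31.5 CPM in control MB, and the control libraries lay between the treated ones. Cav2 was at 43.0 and 42.7 CPM with lactate, within the control range. Cav3 had 11 counts and 1 count with lactate against 12 and 5 without, or 1.93 and 0.178 CPM. Its log2FC of −0.02 had a 95% interval from −2.93 to 2.88, so that even large changes were not detectable with these libraries. The parts of low counts and of spread between libraries in this width were not tested.

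Dysf was at 5.80 and 5.69 CPM with lactate against 5.02 and 3.62 CPM, the only one of the 10 genes whose groups did not overlap, as was so for 11.1% of all genes tested. Its log2FC of 0.38 was the highest of the 8 (SE 0.56, 95% interval −0.97 to 1.73, adjusted p = 1.0, edgeR). Myof was at 173 and 307 CPM with lactate, on both sides of the control values. Trim72 had 1 count in each lactate library and Ano5 had 0, for which 3 counts, or 0.405 and 0.577 CPM by raw totals, are the upper limit.

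The ranges of the annexins overlapped those of the controls. Anxa1 was at 1408 and 1549.8 CPM with lactate, between the control values, and Anxa6 at 1652 and 864 CPM. Anxa2 was at 1589.5 and 1169.5 CPM with lactate and had the lowest log2FC of the 8, −0.28 (95% interval −1.34 to 0.79). The 95% intervals of the remaining tested genes were −1.15 to 1.68 for Cav1, −1.51 to 1.61 for Cav2, −1.11 to 1.09 for Myof, −1.49 to 1.81 for Anxa1 and −1.23 to 1.30 for Anxa6. Of the wider list 48 genes were tested and 0 were called, with log2FC from −1.12 to 1.25. The within-library ratios overlapped between treated and control MB for all 3 pairs, with a difference of −0.87 for Cav3 to Cav1 (exact permutation p = 0.667), 0.47 for Dysf to Myof (p = 0.667) and −0.18 for Cav1 to Cav2 (p = 1).

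The level of the genes in GAS was read per kb of exon and was not tested against the cultures, because library protocols differed. In bulk tissue, fewer cells of a type and less RNA per cell cannot be told apart. Trim72 had the highest level, 71.3 ± 9.1 RPKM (SD, n = 3), with 70.1, 80.9 and 62.9 RPKM in the replicates. Anxa6 came second, at 59.4 ± 3.5 RPKM, and was the most abundant annexin. Ano5 at 33.0 ± 0.4 RPKM and Cav3 at 32.8 ± 4.2 RPKM overlapped. Ano5 varied little, between 32.6 and 33.4 RPKM, whereas Cav3 ranged from 28.5 to 36.8 RPKM.

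Cav1 was at 28.0 ± 0.4 RPKM, below the range of Cav3, and Cav2 at 6.45 ± 0.17 RPKM. The ratio of Cav3 to Cav1 in GAS was 0.22 ± 0.20 on the log2 scale, so that the 2 genes were nearly level per kb, and it was −0.10 with the length of the longest transcript. Endothelial markers summed to 157 to 175 CPM in GAS, with all 6 over 3 counts, fibroblast markers to 477 to 566 CPM, smooth muscle and pericyte markers to 251 to 273 CPM and adipocyte markers to 19.9 to 41.4 CPM. Their part in the Cav1 level of GAS was not tested.

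Dysf was at 8.27 ± 0.07 RPKM in GAS and Myof at 0.380 ± 0.037 RPKM, the lowest of the 10. Dysf exceeded Myof per kb by ratios of 23.0, 19.4 and 23.4, the opposite order to that in MT and MB. The part of the differing library protocols in this was not tested. Anxa2 at 8.55 ± 1.10 RPKM overlapped Dysf, and Anxa1 at 6.42 ± 0.80 RPKM overlapped Cav2. The other neighbours in this order did not overlap. With the length of the longest transcript, Myof was at 0.674, Anxa1 at 11.2 and Anxa2 at 14.0 RPKM, over 1.5 times the values above, and the mean of Cav1, 35.1 RPKM, was then above those of Ano5 and Cav3.

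**Figure D5:**
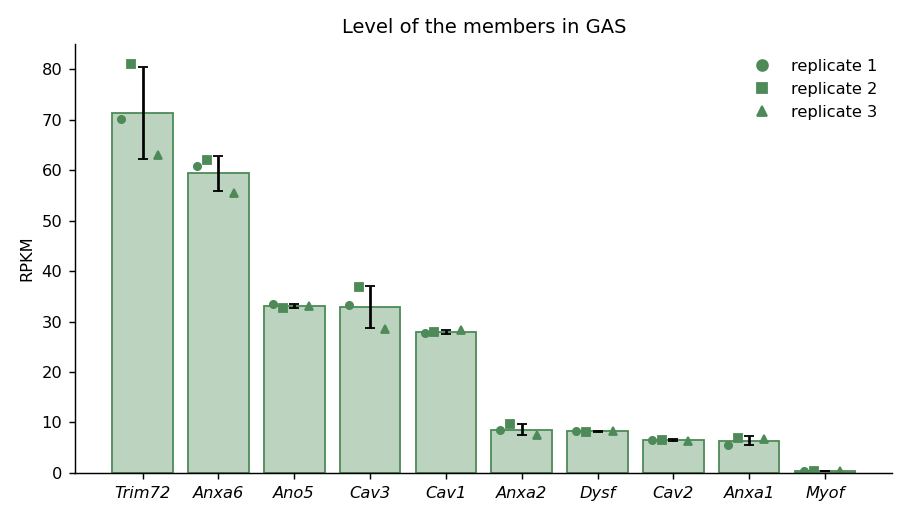
Level of the 10 genes in GAS in RPKM, with bars for the mean, error bars for the SD and a point for each of the 3 replicates. Trim72 and Anxa6 stood highest and Myof lowest, and the pairs Ano5 and Cav3, Anxa2 and Dysf, and Cav2 and Anxa1 overlapped.

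Of the genes of the wider list that passed in MT, Cavin4 was at 88.4 ± 1.4 RPKM in GAS, Pacsin3 at 48.9 ± 3.0 RPKM and Capn3 at 33.6 ± 1.3 RPKM. Ror1 was at 0.275 ± 0.037 RPKM and Pacsin1 at 0 to 0.039 RPKM. Anxa8 varied widely, from 0.028 to 1.75 RPKM. Of the genes lower in MT, S100a10 was at 15.7 ± 1.9 RPKM and Anxa3 at 4.36 ± 0.44 RPKM in GAS.

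The genes whose level followed that of Cav3 or Cav1 most closely were sought by Pearson's r of log2(CPM + 1) over the 6 cultured libraries, as a description, since the libraries share 3 groups. Among 13095 genes, those most like Cav3 were Cap2 (r = 0.999), Thbs3, Hexa, Olfml3 and Cox6a2, and 150 genes had r over 0.99. Those most like Cav1 were Acadvl (r = 0.995), Ube2l6, Cdk5rap3, Vps35l and Gm43672, and 3 genes had r over 0.99. A difference between MT and the other cultures shared by many genes is enough for a high r with Cav3.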

How the data were processed

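RNA sequencing libraries of GAS (3), MT (2), MB (2) and lactate-treated MB (2) were used. Library preparation started from poly(A) RNA for GAS and used Smart-seq2 on total RNA for cultured cells. The submitters' processing notes name FastQC 0.11.0, Trim Galore 0.6.6, HISAT2 2.2.1, Subread 2.0.1 and mm10, and the authors deposited raw counts per gene. The annotation release and the handling of strand are not given in the sources used here.

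Counts were analysed with edgeR 4.0.16 in R 4.3.3 (filterByExpr, TMM, quasi-likelihood test without a replicate term, Benjamini-Hochberg adjustment over all genes tested), each comparison in a fit of its own libraries. SE is the log2FC divided by the square root of F. TMM-scaled CPM were computed for cultures and for GAS separately and divided by exonic length (GENCODE M21) for RPKM. Alternatives were RLE size factors, DESeq2 1.42.0, other filters, the replicate block, all 6 cultured libraries, longest-transcript lengths and leaving out each library. A crossed block was added after the data were seen. Python 3.11.15 with scipy 1.17.1 gave exact permutation tests and intervals, which cover counting error only.

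Genes, lists and tests were chosen with earlier results of these data known. Named are the 10 genes, up to 3 genes past the threshold in each list and direction, and the 5 genes most like Cav3 and Cav1.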

Additional observations from a re-analysis of the deposited data

How the results depend on the processing

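Dysf, Cav3, Trim72, Ano5, Cavin4, Pacsin1, Anxa8 and Capn3 were higher in MT and passed the threshold in every alternative in which they were tested, whereas Cav1 was lost in 4 of 12. Of these, Cav3, Trim72, Ano5, Pacsin1 and Capn3 had passed the main filter through the MT libraries alone, so that nothing is read from their passing. With at least 10 counts required in every library, 2 of the 10 genes were called higher, because Cav3, Trim72 and Ano5 were then not tested. The log2FC of a gene shifted there by a median of 0.11 over genes. Leaving out MT replicate 2 or MB replicate 2 gave median shifts of −0.17 and −0.15. With each library left out in turn, 4 to 5 of the 10 genes were higher, and of the wider list 5 to 11 were higher and 0 to 3 lower. The 11 came without MT replicate 2 and included 5 genes that were not tested with all libraries, and the 0 came without MT replicate 1. The 2 lower calls of the wider list became 4 with DESeq2, 1 without a filter and 1 with at least 10 counts. With libraries left out, the log2FC of MT against MB ranged from −0.25 to 1.83 for Cav2, from −1.84 to −0.24 for Myof and from −1.31 to 0.50 for Anxa1, and the difference in the log2 ratio of Cav1 to Cav2 from −0.37 to 2.27. For lactate, leaving out libraries gave −0.58 to 0.80 for Cav1, −0.52 to 1.27 for Cav2, −2.42 to 0.85 for Cav3, −0.53 to 0.39 for Myof, −0.43 to 1.44 for Anxa1 and −0.45 to 0.55 for Anxa6. Cav3 was at 0.060 with RLE size factors and 0.062 with DESeq2, and Myof at 0.029 with both. None of these lactate values passed. The median level of the 10 genes in GAS was 22.7 RPKM with the longest transcript. Where no reason is given, the cause was not tested.

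Replicate numbers are shared between groups, but the labels do not say that they mark a common origin, and 2 groups of 2 do not show it. The deviations of libraries with the same number had r = −0.13 across 12921 genes for MT and MB and r = 0.70 across 11804 genes for lactate. With the replicate block, 5 of the 10 genes were higher and 0 lower in MT, and of the wider list 8 were higher and 0 lower. Of all 12921 genes tested with the block, 11.2% were higher and 6.38% were lower. Cav1 passed with the block (log2FC 1.79, adjusted p = 0.0207, edgeR), as did Snap23 (0.0387) and Lamp2 (0.0375), whereas S100a10 (0.0668) and Anxa3 (0.101) were lost. For lactate the block gave 0 calls among the 10 genes, the wider list and all 11804 genes tested. With it, 166 genes instead of 5 had an unadjusted p under 0.05 (edgeR). The common coefficient of variation between replicates in the lactate comparison was 0.455 without the block and 0.2245 with it. With crossed numbers for MT and MB, 4 of the 10 genes were higher, without Cav1, and 0 lower, and of the wider list 6 were higher and 3 lower. The share over all genes is not given for the crossed fit. In both fits Cav3, Trim72, Ano5, Pacsin1, Ror1 and Capn3 passed the filter through the MT libraries alone. Nothing is therefore read from the counts of calls for MT.

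Depth limits Cav3, Trim72 and Ano5 in MB, where each had at most 12 counts in a library.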
